A study of Mus musculus with 8 samples.

Results

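The genes described here are 42 mouse genes of glycolysis, the pentose phosphate pathway, pyruvate and lactate handling, oxygen sensing and the response to hypoxia, chosen by name for what they encode. Of these, 39 had a probe on the array, with 55 probes in all among 25697 (18138 gene symbols). Hk2, Gpi1 and Ldhb were not analysed here because no probe carried their symbol. Where several probes carried a symbol, the brightest stands for the gene. The other probes are described for some of the genes where calls differed, and all such genes are named below. After a filter that kept probes detected (detection p under 0.05) on at least 2 of the 8 arrays, 35 of the 39 genes were tested, and Adm, Bnip3, Ero1l and Pfkfb3 were not.

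Macrophages were grown from the bone marrow of 8-week-old female C57bl/6J mice for 7 days with GM-CSF at 10 ng/ml. Marrow came from wild-type (WT) mice or from mice lacking inducible nitric oxide synthase (iNOS-/-), in which the gene Nos2 is disrupted in every cell. M1 cells were stimulated with LPS at 200 ng/ml plus IFN-γ at 10 ng/ml, and the RNA was taken at 6 h. Each genotype was measured unstimulated and as M1, which makes 4 groups, with 2 Illumina arrays in each. The labels do not say whether the 2 arrays of a group came from separate mice or cultures, so the p-values measure only the spread between arrays, which may be technical.

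Glycolysis splits glucose to pyruvate in the cytosol, and the pentose phosphate pathway branches off after the first step to make NADPH and ribose. Macrophages activated by LPS are known for taking up more glucose and releasing lactate. The transcription factor HIF-1α, which responds to low oxygen and is also induced by inflammatory signals, switches on many genes of these pathways. HIF-1α binds DNA at a short core, usually written as ACGTG and less often as the variant GCGTG.

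The 250 bases before the transcription start of 5 genes are printed as examples of windows with and without such cores, for genes picked after their values were seen. The core ACGTG and its variant GCGTG are in capitals, also where they lie on the other strand and read CACGT or CACGC here, and CACGTG counts as 2 overlapping cores. The sequences are RefSeq windows of mouse build GRCm38.p6, printed 5′ to 3′ on the gene's strand: Vegfa (chr17:46032378-46032627, minus strand), Eno2 (chr6:124769674-124769923, minus), Pfkp (chr13:6648772-6649021, minus), Hif1a (chr12:73907617-73907866, plus) and Slc2a1 (chr4:119108495-119108744, plus).
Vegfa: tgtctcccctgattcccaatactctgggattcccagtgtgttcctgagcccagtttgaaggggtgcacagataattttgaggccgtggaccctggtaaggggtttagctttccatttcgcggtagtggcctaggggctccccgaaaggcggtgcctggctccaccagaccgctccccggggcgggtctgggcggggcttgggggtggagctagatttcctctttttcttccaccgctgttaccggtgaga
Eno2: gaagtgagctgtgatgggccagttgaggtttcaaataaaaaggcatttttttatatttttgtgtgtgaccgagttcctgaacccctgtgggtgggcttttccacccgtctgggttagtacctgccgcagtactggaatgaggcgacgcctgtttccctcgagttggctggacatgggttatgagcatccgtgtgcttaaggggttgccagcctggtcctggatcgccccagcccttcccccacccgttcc
Pfkp: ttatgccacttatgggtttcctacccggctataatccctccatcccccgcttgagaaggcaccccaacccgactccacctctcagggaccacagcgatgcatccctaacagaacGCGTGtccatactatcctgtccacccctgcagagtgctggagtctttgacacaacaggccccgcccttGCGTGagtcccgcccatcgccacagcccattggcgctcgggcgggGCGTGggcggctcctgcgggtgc
Hif1a: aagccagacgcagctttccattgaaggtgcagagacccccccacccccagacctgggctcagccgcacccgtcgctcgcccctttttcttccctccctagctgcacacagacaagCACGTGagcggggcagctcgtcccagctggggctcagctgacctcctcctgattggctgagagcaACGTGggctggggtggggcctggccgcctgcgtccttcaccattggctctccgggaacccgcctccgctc
Slc2a1: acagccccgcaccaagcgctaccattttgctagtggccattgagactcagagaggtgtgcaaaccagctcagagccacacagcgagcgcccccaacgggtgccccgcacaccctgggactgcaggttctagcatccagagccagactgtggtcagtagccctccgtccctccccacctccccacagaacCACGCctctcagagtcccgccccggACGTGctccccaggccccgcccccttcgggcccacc
Pfkp and Hif1a had 3 cores each in these windows and Slc2a1 had 2, while the Vegfa and Eno2 windows had 0. The Vegfa window is that of the first of 2 starts in the table, and the window of the other start, not printed, held a core. The window of the first annotated start held at least 1 core in 33 of the 40 listed genes with a RefSeq entry (82.5%), against 10431 of all 27025 genes in the table (38.6%). The 27025 genes were not limited to those tested on the arrays, so these shares come from unlike sets of genes. No share over all tested genes was computed. Among the tested genes, a core stood in the window of 6 of 7 that were higher in iNOS-/- M1 than in WT M1, 9 of 13 that were lower and 12 of 13 that were not called. A match describes the letters of this window and no binding. Slc2a3 and Ndrg1 had no entry.

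The targeted gene did not mark the genotype. The log2 intensity of Nos2 was 7.47 and 7.05 on the WT M1 arrays and 7.49 and 7.67 on the arrays labelled iNOS-/- M1, and no unstimulated array detected it. The difference between the M1 groups was 0.32 on the log2 scale (SE 0.32, adjusted p 0.445 by limma). The probe starts at base 3546 of the transcript, and whether the disrupted part includes it was not tested, so Nos2 does not check the genotype labels. The genotype is therefore written as labelled, and every direction below rests on the labels.

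Between 11833 and 12673 probes were detected per array, and the mean deposited intensity was 155 to 224. All 10 macrophage markers on the array were detected in every group, and none of 8 lymphocyte markers was detected on both arrays of any group. Summed intensities of 7 dendritic cell markers were 204 to 244.9 in WT unstimulated, 1093 to 1138 in WT M1, 1120 to 1193 in iNOS-/- unstimulated and 3256 to 3407 in iNOS-/- M1, with Flt3 not detected in any group. Those of 12 granulocyte markers were 1313 to 1317, 2051 to 2141, 1943 to 2007 and 6868 to 7296 in the same order, with Mpo, Ctsg and Prtn3 not detected in any group. Those of 12 markers of dividing cells were 733.9 to 823.1, 2270 to 2395, 2710 to 2747 and 967 to 972. These levels moved with the groups, and their part in the results below was not tested. In RNA from whole cultures, fewer cells of a type and less RNA per cell cannot be told apart.

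Between the M1 groups, 22 of the 35 tested genes passed an adjusted p of 0.05 (9 higher and 13 lower in iNOS-/-). Over all 10141 genes tested by their brightest probe, 49.8% passed, 23.8% higher and 26% lower. The median log2 fold change was -0.22 over the 35 genes and -0.03 over all genes. Higher genes included a hexokinase and a phosphofructokinase (Hk3, Pfkp), the pyruvate dehydrogenase kinase Pdk3, glucose transporters (Slc2a1, Slc2a3), Hif1a and the hypoxia targets Ndrg1, Vegfa and P4ha1. Lower genes included Pfkfb4, Pfkl, Pfkm and the downstream enzymes Aldoa, Tpi1, Eno2 and Pkm2.
Between the unstimulated groups, 11 genes passed (4 higher, 7 lower), against 34.1% of all genes (17.9% higher, 16.2% lower), and the median log2 fold change was -0.06 over the members and 0 over all genes. The largest differences there were in Eno2 and Vegfa, which were lower in iNOS-/-, and Eno3, which was higher. The unstimulated comparison and the responses share arrays, so their values are set side by side only.

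**Figure D1:**
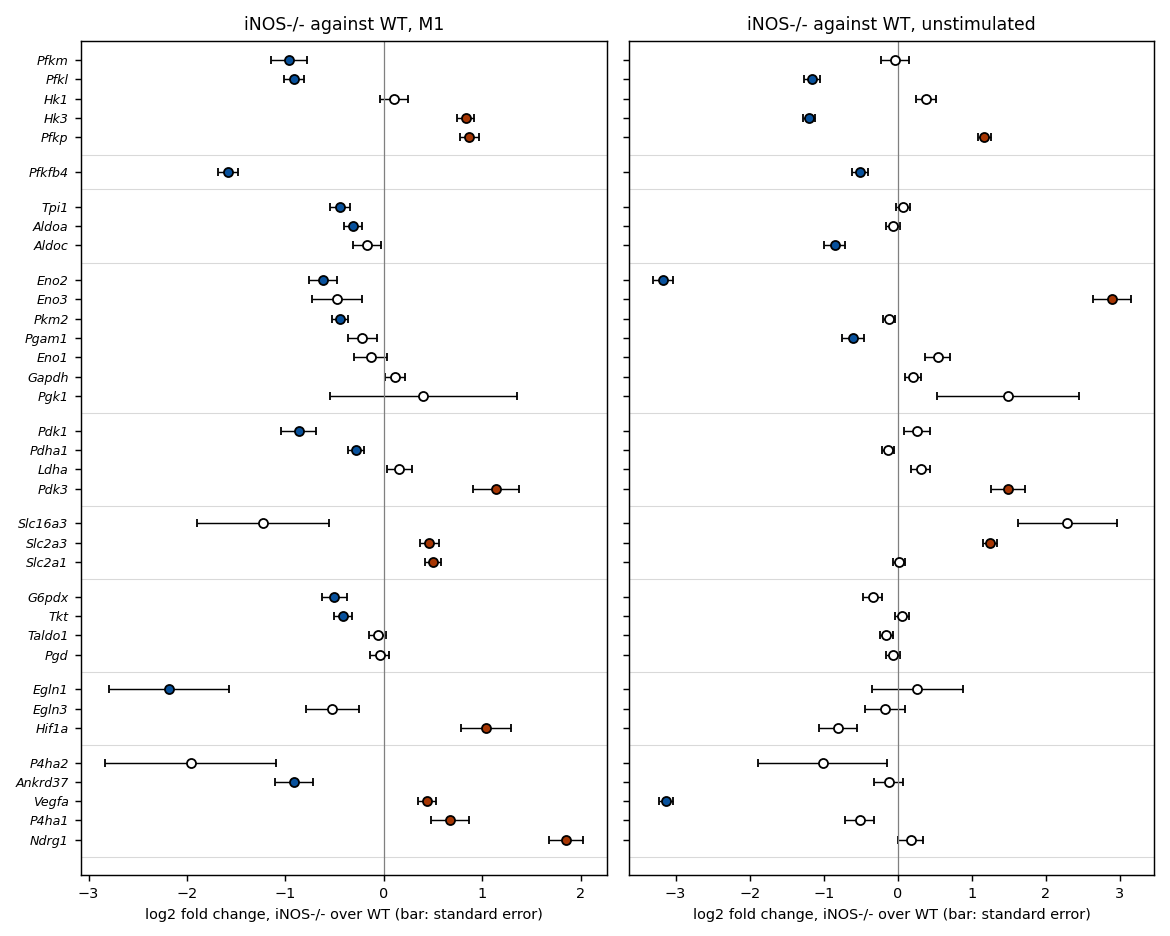
Log2 fold change (x axis, bar: standard error) of each of the 35 tested genes by role, iNOS-/- over WT, for the M1 and the unstimulated arrays as labelled. Red points were called higher, blue lower, and open points were not called; the 22 calls of the M1 comparison lie on both sides of 0. Fitted values of Egln1, P4ha2, Pgk1 and Slc16a3 involve arrays where the probe was not detected.

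Of the 3 tested genes for glucose uptake and lactate export, 2 were higher in iNOS-/- M1 than in WT M1, where 23.8% of all genes were higher. Under neqc and quantile normalization Slc2a3 alone of the 3 was called higher, and under neqc Slc16a3 was called lower (-0.51). Slc2a1, which encodes the widely expressed glucose transporter GLUT1, had a log2 intensity of 9.85 and 9.88 in WT unstimulated, 10.14 and 10.04 in WT M1, 9.87 and 9.91 in iNOS-/- unstimulated and 10.60 and 10.58 in iNOS-/- M1. Both iNOS-/- M1 arrays lay above the other 6, and the unstimulated groups overlapped. Its log2 fold change between the M1 groups was 0.50 (SE 0.08, adjusted p 0.0054), and it kept its call whichever array was left out. Under quantile normalization and neqc, a background and quantile method, this difference was 0.12 and 0.11 and was not called. The rise with stimulation was 0.70 (SE 0.08, adjusted p 0.0014) in iNOS-/-, but 0.22 and 0.21 under those scalings, and 0.22 (SE 0.08, adjusted p 0.088) in WT.

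Slc2a3, which encodes the high-affinity glucose transporter GLUT3, had its 2 lowest values in WT unstimulated cells. The log2 intensity was 4.96 and 5.01 there, 5.72 and 5.70 in WT M1, 6.27 and 6.19 in iNOS-/- unstimulated and 6.07 and 6.27 in iNOS-/- M1. All 4 iNOS-/- arrays lay above the WT arrays, and the iNOS-/- groups overlapped. The log2 fold change of iNOS-/- over WT was 1.25 (SE 0.10, adjusted p 0.0009) in unstimulated cells and 0.46 (SE 0.10, adjusted p 0.014) in M1 cells. The M1 call did not hold without WT M1 replicate 1 or WT M1 replicate 2 (adjusted p 0.0527 to 0.0615, log2 fold changes 0.48 and 0.45). Slc2a3 rose by 0.73 (SE 0.10, adjusted p 0.0047) with stimulation in WT.
Slc16a3, the lactate exporter MCT4, was not detected on either WT unstimulated array (log2 intensity 0.00 and 2.07) and reached 4.42 and 4.61 in WT M1. That is at least 4.05-fold higher (adjusted p 0.014), a call lost without WT M1 replicate 1 or WT M1 replicate 2 (adjusted p 0.0587 to 0.067). The iNOS-/- arrays overlapped at 3.56 and 3.09 unstimulated and 3.06 and 3.51 M1. The difference between the M1 groups, -1.22 (SE 0.67, adjusted p 0.19), was not called.

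The hexokinases, which trap glucose in the cell as glucose 6-phosphate, changed separately. Hk3, the hexokinase typical of myeloid cells, had a log2 intensity of 10.48 and 10.49 in WT unstimulated, 9.98 and 10.08 in WT M1, 9.26 and 9.30 in iNOS-/- unstimulated and 10.90 and 10.83 in iNOS-/- M1. No groups overlapped, and the iNOS-/- groups held both the lowest and the highest arrays. Hk3 was 0.83 higher in iNOS-/- M1 than in WT M1 (SE 0.08, adjusted p 0.001) and fell by 1.20 in iNOS-/- against WT before stimulation (SE 0.08, adjusted p 0.00058). Stimulation lowered Hk3 in WT by -0.45 on the log2 scale (SE 0.08, adjusted p 0.012) and raised it in iNOS-/- by 1.58 (SE 0.08, adjusted p 0.00011). The WT fall was not called without WT unstimulated replicate 1, WT unstimulated replicate 2 or WT M1 replicate 1 (-0.46, -0.44 and -0.41, adjusted p up to 0.0578).
Hk1, the hexokinase found in most tissues, rose with stimulation by 0.75 in WT (SE 0.14, adjusted p 0.013) and 0.47 in iNOS-/- (SE 0.14, adjusted p 0.039). Its M1 groups overlapped, at 5.85 and 5.97 in WT and 6.08 and 5.94 in iNOS-/-. The WT rise was lost without WT unstimulated replicate 1 or WT M1 replicate 2 (adjusted p up to 0.0651), and the iNOS-/- rise in 7 of the 8 fits that left out an array, all but the one without iNOS-/- unstimulated replicate 2 (adjusted p up to 0.145).

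**Figure D2:**
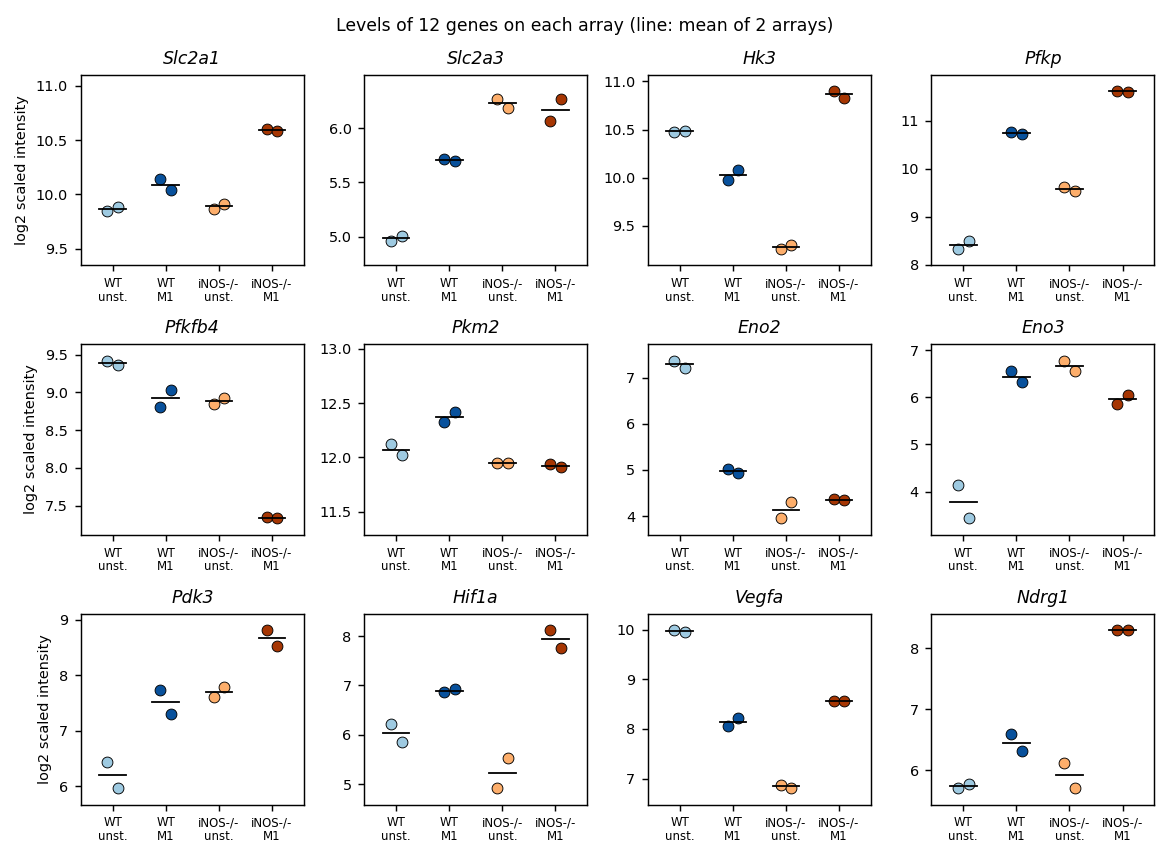
Log2 scaled intensity (y axis) of 12 genes on each of the 8 arrays, by labelled group; points are arrays and lines the mean of 2. Hk3 and Vegfa fell from WT unstimulated to WT M1 and rose from iNOS-/- unstimulated to iNOS-/- M1, and Pfkp rose in both.

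Phosphofructokinase, which commits sugar to glycolysis, is built from platelet (Pfkp), liver (Pfkl) and muscle (Pfkm) subunits, and these moved in different directions. Pfkp had a log2 intensity of 8.33 and 8.49 in WT unstimulated, 10.77 and 10.72 in WT M1, 9.62 and 9.54 in iNOS-/- unstimulated and 11.62 and 11.61 in iNOS-/- M1. No groups overlapped, and iNOS-/- M1 was the highest. The 50-base probe that gave these values, at base 1632 of the transcript, and a second Pfkp probe, at base 513, are printed since both rose in both genotypes, by different amounts.
Pfkp probe at base 1632: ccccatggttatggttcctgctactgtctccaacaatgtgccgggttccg
Pfkp probe at base 513: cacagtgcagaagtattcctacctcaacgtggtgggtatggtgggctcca
At base 1632, stimulation raised Pfkp by 2.34 in WT (SE 0.09, adjusted p 8.8e-05) and 2.04 in iNOS-/- (SE 0.09, adjusted p 7.4e-05). Pfkp was higher in iNOS-/- by 0.87 between the M1 groups (SE 0.09, adjusted p 0.0013) and by 1.17 between the unstimulated groups (SE 0.09, adjusted p 0.00088). The probe at base 513 was higher in iNOS-/- M1 by 1.44 (SE 0.12, adjusted p 0.00069), with log2 intensities of 8.59 and 8.51 in WT M1 and 9.97 and 10.02 in iNOS-/- M1. The difference of the responses was called at base 513 (0.81, SE 0.18, adjusted p 0.018) and not at base 1632 (-0.30, SE 0.13, adjusted p 0.12). Under neqc and quantile normalization base 1632 was at -0.85 (adjusted p 0.00056) and -0.88 (adjusted p 0.0056), called lower under both.

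Pfkl went the other way, with log2 intensities of 9.83 and 9.63 in WT unstimulated, 9.70 and 9.65 in WT M1, 8.58 and 8.56 in iNOS-/- unstimulated and 8.82 and 8.72 in iNOS-/- M1. Each iNOS-/- array lay below each WT array, and stimulation was not called in either genotype. Pfkl was lower in iNOS-/- by -0.91 between the M1 groups (SE 0.10, adjusted p 0.0015) and by -1.16 between the unstimulated groups (SE 0.10, adjusted p 0.0012). A dimmer probe at base 3155, detected on 6 of 8 arrays, gave 0.98 between the M1 groups (SE 1.05, adjusted p 0.48), and the average of both probes was 0.04.
Pfkm was lower only in stimulated iNOS-/- cells. The log2 intensity lay between 6.73 and 6.86 on the other 6 arrays and was 6.10 and 5.56 in iNOS-/- M1. The log2 fold change was -0.96 between the M1 groups (SE 0.19, adjusted p 0.01) and -0.90 with stimulation in iNOS-/- (SE 0.19, adjusted p 0.012). The M1 call was lost without WT M1 replicate 2 (adjusted p 0.0529) and the call with stimulation without either iNOS-/- unstimulated array (adjusted p 0.0537 and 0.0544).

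Pfkfb4, an enzyme that sets fructose 2,6-bisphosphate and through it the speed of phosphofructokinase, was lower in both genotypes after stimulation. Its log2 intensity was 9.42 and 9.36 in WT unstimulated, 8.81 and 9.03 in WT M1, 8.85 and 8.92 in iNOS-/- unstimulated and 7.35 and 7.33 in iNOS-/- M1. Both iNOS-/- M1 arrays lay below the other 6. Pfkfb4 changed by -1.58 between the M1 groups (SE 0.10, adjusted p 0.00034), -1.54 with stimulation in iNOS-/- (SE 0.10, adjusted p 0.00023) and -0.47 with stimulation in WT (SE 0.10, adjusted p 0.021). The WT fall did not hold without WT unstimulated replicate 1, WT unstimulated replicate 2 or WT M1 replicate 1 (adjusted p up to 0.0951). Before stimulation Pfkfb4 was -0.51 lower in iNOS-/- (SE 0.10, adjusted p 0.018), a call lost without any 1 of the 4 unstimulated arrays (adjusted p up to 0.0884). The related Pfkfb3 was not detected on any of the 8 arrays.

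Aldolase splits the 6-carbon sugar and triose phosphate isomerase interconverts the products. Aldoa, the main aldolase of most cells, had a log2 intensity of 11.25 and 11.24 in WT M1 and 10.93 and 10.94 in iNOS-/- M1, and between 10.84 and 11.02 on the unstimulated arrays. The WT M1 arrays lay above the rest. The log2 fold change between the M1 groups was -0.31 (SE 0.09, adjusted p 0.036), lost without any of the 4 M1 or 2 WT unstimulated arrays (adjusted p 0.0571 to 0.117).
Tpi1 had the same shape at 11.20 and 11.42 in WT M1 against 10.85 and 10.88 in iNOS-/- M1. Its log2 fold change was -0.44 between the M1 groups (SE 0.10, adjusted p 0.017), lost without iNOS-/- M1 replicate 1, iNOS-/- M1 replicate 2 or WT M1 replicate 2 (adjusted p up to 0.0655). Tpi1 rose by 0.43 in WT with stimulation (SE 0.10, adjusted p 0.026). That rise was lost in 5 of the 8 fits that left out an array, those without either WT unstimulated array, either iNOS-/- unstimulated array or WT M1 replicate 2 (adjusted p up to 0.104). A dimmer Tpi1 probe also had its highest mean in WT M1 (10.05). The dimmest had its highest mean in iNOS-/- unstimulated (4.9, against 4.7 in WT M1).
Aldoc, a second aldolase, was highest in WT unstimulated cells (9.18 and 9.31), above 8.51 and 8.63 in WT M1, 8.36 and 8.43 in iNOS-/- unstimulated and 8.58 and 8.22 in iNOS-/- M1. It was -0.85 lower in unstimulated iNOS-/- than WT cells (SE 0.14, adjusted p 0.0095), and fell by 0.67 with stimulation in WT (SE 0.14, adjusted p 0.019). The unstimulated call was lost without iNOS-/- unstimulated replicate 1 or WT unstimulated replicate 2 (adjusted p up to 0.0551), and the WT fall without any 1 of the 4 WT arrays (adjusted p up to 0.0898).

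Of 7 tested genes of lower glycolysis, 4 rose with stimulation in WT (Gapdh, Eno1, Eno3 and Pkm2), 1 fell (Eno2), and none was called in iNOS-/-, where under neqc Eno1, Eno3, Gapdh and Pkm2 were called lower. Of all genes 36.5% were called in WT and 52% in iNOS-/-. Under neqc the WT rises of Gapdh (0.26) and Pkm2 (0.20) were not called. The 3 enolases, which make phosphoenolpyruvate and are named for the tissues where they were first described, differed most. Eno2, the neuronal form, had a log2 intensity of 7.37 and 7.22 in WT unstimulated, 5.02 and 4.94 in WT M1, 3.95 and 4.30 in iNOS-/- unstimulated and 4.37 and 4.35 in iNOS-/- M1. Both WT unstimulated arrays stood apart above the other 6. Eno2 fell by 3.17 in iNOS-/- against WT before stimulation (SE 0.14, adjusted p 0.00015) and by 2.32 with stimulation in WT (SE 0.14, adjusted p 0.00033). In iNOS-/- the change with stimulation was 0.24 (SE 0.14, adjusted p 0.21). The difference between the M1 groups was -0.62 (SE 0.14, adjusted p 0.017), lost without any 1 of the 4 M1 arrays (adjusted p 0.0563 to 0.0751) and at -0.25 under neqc.

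Eno3, the muscle enolase, ran opposite to Eno2 between the unstimulated groups and in the WT response. Its log2 intensity was 4.13 and 3.43 in WT unstimulated and 6.55 and 6.32 in WT M1. In iNOS-/- it was 6.78 and 6.57 unstimulated and 5.86 and 6.06 in M1. Here the WT unstimulated arrays were the lowest of the 8. Eno3 was 2.89 higher in iNOS-/- before stimulation (SE 0.25, adjusted p 0.0012) and rose by 2.65 in WT (SE 0.25, adjusted p 0.0015). In iNOS-/- it changed by -0.71 (SE 0.25, adjusted p 0.066), and the M1 groups differed by -0.48 (SE 0.25, adjusted p 0.18).
Eno1, the form of most tissues, rose by 0.84 in WT (SE 0.17, adjusted p 0.016), from 10.76 and 10.82 to 11.69 and 11.57, a call lost without any 1 of the 4 WT arrays (adjusted p 0.0551 to 0.0743). Its M1 groups overlapped (11.26 and 11.73 in iNOS-/-).

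Pkm2, the array's symbol for the muscle-type pyruvate kinase gene, whose product makes pyruvate, had a log2 intensity of 12.12 and 12.02 in WT unstimulated, 12.33 and 12.42 in WT M1, 11.95 and 11.95 in iNOS-/- unstimulated and 11.94 and 11.91 in iNOS-/- M1. WT M1 was the highest group and no iNOS-/- array reached a WT array. The difference between the M1 groups was -0.45 (SE 0.08, adjusted p 0.0086), and it passed whichever array was left out. The WT rise of 0.30 (SE 0.08, adjusted p 0.041) was lost in all 8 fits that left out an array (adjusted p 0.0603 to 0.163).
Gapdh, often used as a reference gene, rose by 0.38 in WT (SE 0.10, adjusted p 0.039), from 11.88 and 11.91 to 12.26 and 12.29. That call was lost without any WT or iNOS-/- unstimulated array, 6 in all (adjusted p 0.0722 to 0.14). Between the M1 groups it differed by 0.11 (SE 0.10, adjusted p 0.4), which turned to -0.32 under neqc and under quantile normalization, called lower under both.
Pgam1, phosphoglycerate mutase, was lower in unstimulated iNOS-/- cells by -0.60 (SE 0.15, adjusted p 0.031), a call lost without either WT unstimulated array, either WT M1 array or iNOS-/- unstimulated replicate 2 (adjusted p 0.0578 to 0.122). The Pgk1 probe, at base 20 of the transcript, was detected on 2 of the 8 arrays and gave no call.

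Pyruvate either becomes lactate through lactate dehydrogenase or enters mitochondria through pyruvate dehydrogenase, which the PDK kinases switch off. Ldha was not called in any comparison under the rank-invariant scaling. Its log2 intensity was 11.75 and 12.06 in WT M1 and 12.09 and 12.03 in iNOS-/- M1, which overlapped (0.16, SE 0.13, adjusted p 0.37). Under neqc and quantile normalization this difference was -0.32, called lower under neqc alone. The iNOS-/- response (-0.52) and the interaction (-0.70) of Ldha were called lower under both. Neqc also called Ldha higher between the unstimulated groups (0.38).
The kinases moved apart. Pdk3 had a log2 intensity of 6.44 and 5.97 in WT unstimulated, 7.74 and 7.31 in WT M1, 7.60 and 7.78 in iNOS-/- unstimulated and 8.81 and 8.52 in iNOS-/- M1. WT unstimulated was the lowest group, iNOS-/- M1 the highest, and the groups between overlapped. Pdk3 in iNOS-/- exceeded WT by 1.14 between the M1 groups (SE 0.23, adjusted p 0.012) and 1.49 between the unstimulated groups (SE 0.23, adjusted p 0.0075). Stimulation raised Pdk3 by 1.32 in WT (SE 0.23, adjusted p 0.01) and 0.97 in iNOS-/- (SE 0.23, adjusted p 0.019). The M1 difference was lost without iNOS-/- M1 replicate 1 or WT M1 replicate 2 (0.93, adjusted p up to 0.0567), and the iNOS-/- rise without iNOS-/- M1 replicate 1 or either iNOS-/- unstimulated array (adjusted p up to 0.0892).

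Pdk1, the kinase best known as a HIF-1α target, was lowest in iNOS-/- M1. The log2 intensity was 5.94 and 5.72 in WT unstimulated, 5.96 and 6.39 in WT M1, 6.15 and 6.02 in iNOS-/- unstimulated and 5.39 and 5.24 in iNOS-/- M1. Both of the last lay below the other 6 arrays. Pdk1 was -0.86 lower between the M1 groups (SE 0.18, adjusted p 0.012), a call lost without iNOS-/- M1 replicate 2 (-0.79, adjusted p 0.055). With stimulation it fell by 0.77 in iNOS-/- (SE 0.18, adjusted p 0.016), lost without iNOS-/- M1 replicate 2 or either iNOS-/- unstimulated array (adjusted p up to 0.0788).
Pdha1, a subunit of pyruvate dehydrogenase, was -0.29 lower between the M1 groups (9.25 and 9.34 against 9.03 and 8.99, SE 0.08, adjusted p 0.034), and this call was lost in all 8 fits that left out an array (adjusted p 0.0595 to 0.13).

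In the pentose phosphate pathway, 2 of 4 tested genes were lower in iNOS-/- M1 than in WT M1 and none was higher, where 49.8% of all genes were called and 26% were lower. Transketolase (Tkt), which returns sugars to glycolysis, had a log2 intensity of 11.34 and 11.25 in WT M1 and 10.88 and 10.88 in iNOS-/- M1, with the unstimulated arrays at 10.79 to 10.95. A dimmer Tkt probe was highest in WT unstimulated, with a mean of 5.18 against 4.57 in WT M1. By the brightest probe WT M1 alone stood above the rest. The log2 fold change was -0.42 between the M1 groups (SE 0.09, adjusted p 0.014), lost without iNOS-/- M1 replicate 1, iNOS-/- M1 replicate 2 or WT M1 replicate 1 (adjusted p up to 0.0663), and the rise in WT was 0.45 (SE 0.09, adjusted p 0.015), lost without WT M1 replicate 1 or WT unstimulated replicate 2 (adjusted p up to 0.0755).
G6pdx, whose product glucose 6-phosphate dehydrogenase opens the pathway, was -0.50 lower between the M1 groups (9.05 and 8.91 against 8.34 and 8.62, SE 0.13, adjusted p 0.024). Without iNOS-/- M1 replicate 1, WT M1 replicate 1 or WT M1 replicate 2 it was -0.36, -0.43 and -0.57 and not called (adjusted p 0.0555 to 0.105). Pgd, the second NADPH-making enzyme, and Taldo1, transaldolase, were not called in any comparison under the rank-invariant scaling. Their M1 differences were -0.04 (SE 0.10, adjusted p 0.75) and -0.06 (SE 0.09, adjusted p 0.6). Under neqc and quantile normalization these were -0.58 and -0.50, and all 4 genes of the pathway were called lower between the M1 groups.

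Of the oxygen-sensing genes, Hif1a, which encodes HIF-1α, was highest in iNOS-/- M1. Its log2 intensity was 6.22 and 5.86 in WT unstimulated, 6.86 and 6.93 in WT M1, 4.92 and 5.52 in iNOS-/- unstimulated and 8.12 and 7.75 in iNOS-/- M1. No groups overlapped, and iNOS-/- unstimulated was the lowest. Hif1a rose by 2.71 with stimulation in iNOS-/- (SE 0.26, adjusted p 0.00068). In WT the change was 0.86 (SE 0.26, adjusted p 0.051). The M1 groups differed by 1.04 (SE 0.26, adjusted p 0.022), a call lost without iNOS-/- M1 replicate 1 (0.85), WT M1 replicate 1 or WT M1 replicate 2 (1.07, adjusted p 0.0764 to 0.0961). The unstimulated groups differed by -0.81 (SE 0.26, adjusted p 0.064).

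Egln1 and Egln3 encode prolyl hydroxylases that mark HIF-1α for destruction when oxygen is present. Egln1 was dim, with log2 intensities of 4.06 and 4.02 in WT M1 and no detection on either iNOS-/- M1 array, so WT M1 was at least 2.21-fold higher (adjusted p 0.034). That call was lost without either WT M1 array or any of the 4 unstimulated arrays (adjusted p 0.0591 to 0.113). This probe starts at base 1396. Other Egln1 probes, at bases 1395 and 1399, gave no call. Base 1395 was detected on iNOS-/- M1 replicate 1 (3.38, where base 1396 read 0.9) and not on replicate 2. Base 1399 was detected on neither.
Egln3, itself induced by HIF-1α, rose with stimulation by 1.54 in WT (3.59 and 3.71 to 4.90 and 5.48, SE 0.27, adjusted p 0.011) and by 1.19 in iNOS-/- (3.79 and 3.17 to 4.63 and 4.70, SE 0.27, adjusted p 0.016). The WT rise was lost without WT unstimulated replicate 1 (adjusted p 0.0561), and the iNOS-/- rise without either iNOS-/- M1 array or iNOS-/- unstimulated replicate 2 (0.88, adjusted p up to 0.0671).

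Among hypoxia-response targets, 3 of 5 tested genes were higher in iNOS-/- M1 than in WT M1 (Vegfa, Ndrg1, P4ha1) and 1 was lower (Ankrd37), where 23.8% of all genes were higher and 26% lower. Vegfa encodes vascular endothelial growth factor A, which drives vessel growth. Its log2 intensity was 9.99 and 9.95 in WT unstimulated, 8.05 and 8.21 in WT M1, 6.87 and 6.81 in iNOS-/- unstimulated and 8.57 and 8.57 in iNOS-/- M1. The unstimulated groups held the 2 extremes, and no groups overlapped. Vegfa fell by 3.13 in iNOS-/- against WT before stimulation (SE 0.09, adjusted p 5.5e-05). Stimulation lowered it by -1.84 in WT (SE 0.09, adjusted p 0.00017) and raised it by 1.73 in iNOS-/- (SE 0.09, adjusted p 0.00011). The M1 groups differed by 0.44 (SE 0.09, adjusted p 0.012), a call lost without WT M1 replicate 1 (0.36, adjusted p 0.0544). A second Vegfa probe, at base 2128, gave -3.27, -1.72, 2.02 and 0.47 for these comparisons, the last not called (adjusted p 0.07).

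Ndrg1, a stress-response gene often used as a marker of hypoxia, had a log2 intensity of 5.71 and 5.78 in WT unstimulated, 6.59 and 6.31 in WT M1, 6.12 and 5.71 in iNOS-/- unstimulated and 8.30 and 8.30 in iNOS-/- M1. Both iNOS-/- M1 arrays stood above the other 6. The log2 fold change was 1.85 between the M1 groups (SE 0.17, adjusted p 0.00083) and 2.38 with stimulation in iNOS-/- (SE 0.17, adjusted p 0.00028), both called whichever array was left out. In WT it was 0.70 (SE 0.17, adjusted p 0.028), lost without any 1 of the 4 WT arrays or 2 iNOS-/- M1 arrays (adjusted p 0.0501 to 0.118).
P4ha1, a collagen prolyl hydroxylase, had a log2 intensity of 4.15 and 4.07 in WT unstimulated, 3.35 and 2.99 in WT M1, 3.80 and 3.39 in iNOS-/- unstimulated and 3.73 and 3.95 in iNOS-/- M1. WT M1 was the lowest group. P4ha1 fell by 0.94 in WT (SE 0.20, adjusted p 0.018), lost without either WT unstimulated array or WT M1 replicate 2 (adjusted p up to 0.0832). It was 0.67 higher between the M1 groups (SE 0.20, adjusted p 0.039). That difference was lost in 5 of the 8 fits that left out an array, those without either iNOS-/- M1 array, either WT unstimulated array or WT M1 replicate 2 (0.49, adjusted p up to 0.154), and was 0.00 with a floor of 16.
Ankrd37, a small hypoxia-induced protein, rose in WT from 4.79 and 4.66 to 5.75 and 5.68 (0.99, SE 0.19, adjusted p 0.014), and the iNOS-/- groups overlapped at 4.86 and 4.34 unstimulated and 4.70 and 4.91 M1. The M1 groups differed by -0.92 (SE 0.19, adjusted p 0.013). The WT rise was lost without any 1 of the 4 WT arrays (adjusted p up to 0.0719), and the M1 difference without either WT M1 array or iNOS-/- M1 replicate 1 (adjusted p 0.051 to 0.063). P4ha2 was not called in any comparison under the rank-invariant scaling, and neqc called it lower in unstimulated iNOS-/- cells (-0.36). Adm and Bnip3 were not detected on any array, and Ero1l on 1 array.

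With stimulation, 20 of 35 genes passed in WT (14 higher, 6 lower) against 36.5% of all genes (20.9% higher, 15.5% lower). In iNOS-/- 12 passed (9 higher, 3 lower) against 52% of all genes (25.2% higher, 26.8% lower). The median log2 fold change was 0.3 in WT, where it was 0.06 over all genes, and 0.12 in iNOS-/-, where it was -0.01. The WT and iNOS-/- responses share no arrays. Egln3, Hk1, Ndrg1, Pdk3 and Pfkp were called higher in both genotypes and Pfkfb4 lower in both. Hk3 and Vegfa were called lower in WT and higher in iNOS-/-. Of the rest, 9 were called higher and 3 lower in WT alone, and 2 higher (Hif1a, Slc2a1) and 2 lower (Pdk1, Pfkm) in iNOS-/- alone, which by itself is no test of a difference.
The difference of the responses was tested as the interaction term of the fit, and 16 genes passed (8 higher, 8 lower) against 43.8% of all genes (20.1% higher, 23.7% lower). The median was -0.28, against -0.05 over all genes. The even split depended on the scaling, with 7 higher and 18 lower under neqc and 6 and 15 under quantile normalization. The medians there were -0.36 and -0.51, and 15 and 12 of the 16 calls were kept. Over all probes 50.8% and 45.7% of the called ones were higher, against 46.1% in the rank-invariant scaling. A response higher in iNOS-/- was called for Vegfa (3.57, SE 0.13, adjusted p 0.00015), Eno2 (2.56, SE 0.20, adjusted p 0.00077), Hk3 (2.03, SE 0.12, adjusted p 0.00039), Hif1a (1.85, SE 0.36, adjusted p 0.012) and Ndrg1 (1.68, SE 0.24, adjusted p 0.0046), and for P4ha1, Aldoc and Slc2a1, of which Slc2a1 was at -0.03 under neqc and quantile normalization. It was called lower for Eno3 (-3.37, SE 0.36, adjusted p 0.0019), Pfkfb4 (-1.07, SE 0.15, adjusted p 0.004) and Slc2a3 (-0.78, SE 0.14, adjusted p 0.0091), and for Slc16a3, Pdk1, Pfkm, Tpi1 and Tkt. The size for Slc16a3 was not measured, since neither WT unstimulated array detected its probe. The 8 genes given with values passed whichever array was left out, and the other 8 each lost the call in at least 3 such fits.

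**Figure D3:**
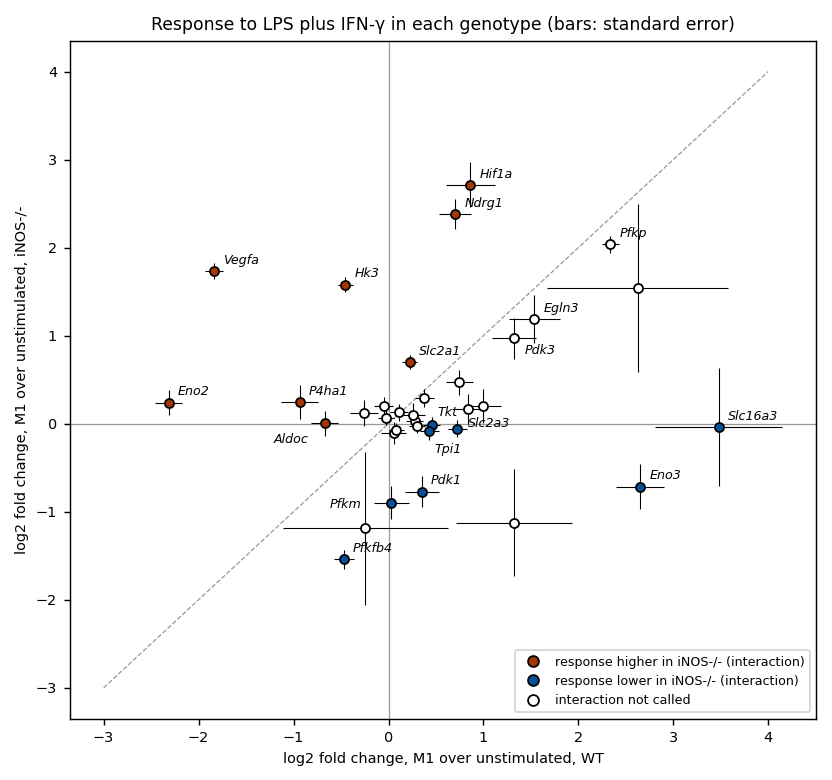
Log2 fold change with stimulation in WT (x axis) and in cells labelled iNOS-/- (y axis) for the 35 tested genes, with standard errors; the dashed line marks equal responses. Red and blue points had an interaction called higher or lower in iNOS-/-, and open points were not called; Vegfa and Hk3 lie at negative x and positive y.

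Counted by probes, 27 of the 46 tested probes of these genes passed between the M1 groups (48.2% of all 13868 probes did), 15 between the unstimulated groups (32.2%), 23 in the WT response (35.1%), 16 in the iNOS-/- response (50.3%) and 20 for the interaction (42%). Tested probes numbered more than 1 in 8 genes. Between the M1 groups 4 of the 8 had the same call on every tested probe, and in the iNOS-/- response 7 did. Calls differed for Egln1, Pfkl, Tpi1 and Vegfa between the M1 groups, and for Pfkl, Tkt and Tpi1 between the unstimulated groups. In the WT response they differed for Slc16a3, Tkt and Tpi1, and in the iNOS-/- response for Tkt. For the interaction they differed for Pfkp, Slc16a3, Tkt and Tpi1. Opposite calls came once, for Tkt in the WT response. The probe at base 2037 rose by 0.45 (SE 0.09, adjusted p 0.015), while the dimmer one at base 2916 went from 5.19 and 5.17 to 4.61 and 4.53, a fall of -0.61 (SE 0.17, adjusted p 0.042). Between the M1 groups all 3 Tkt probes were lower in iNOS-/-, with base 2916 at -1.57 (SE 0.17, adjusted p 0.0013) and base 2764, not detected in iNOS-/- M1, at least 2.19-fold lower (adjusted p 0.0072). Both tested Pfkp probes, whose sequences stand above, were higher in the M1 comparison and in the WT response.

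**Figure D4:**
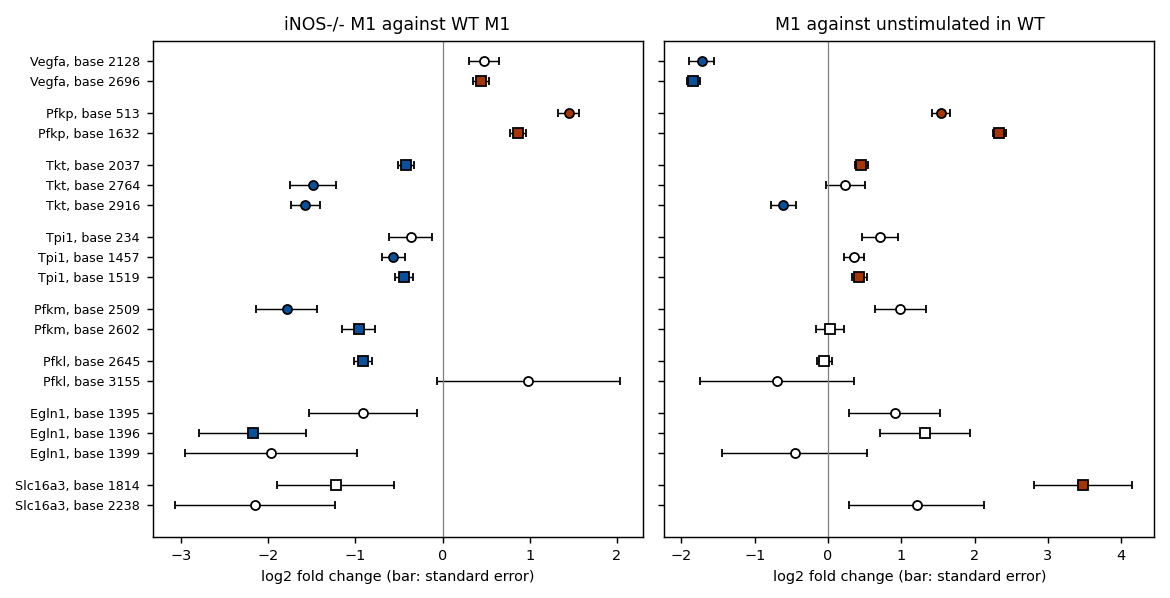
Log2 fold change (x axis, bar: standard error) of each tested probe of the genes with several, for the M1 comparison as labelled and for the WT response; squares are the brightest probe, circles the others, and the number is the probe's first base in the transcript. The Tkt probes at bases 2037 and 2916 lie on opposite sides of 0 in the WT response.

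Scaling moved one set of genes together. Under neqc, 12 genes (Aldoa, Eno1, Gapdh, Hk3, Ldha, Pfkp, Pgd, Pkm2, Slc2a1, Taldo1, Tkt and Tpi1) had M1 differences 0.39 to 0.54 lower than in the rank-invariant scaling, and 0.38 to 0.54 lower under quantile normalization. The 12 were the brightest of the 35 tested genes in both M1 groups. Mean log2 intensities in WT M1 were at least 10.03 for the 12 and at most 9.68 for the others. In iNOS-/- M1 they were at least 10.59 and at most 9.01. Whether the brightness accounts for the shift was not tested. With these shifts, the 35 genes gave 8 higher and 18 lower calls under neqc and 8 and 16 under quantile normalization. The rank-invariant scaling gave 9 and 13. Over all probes the called ones numbered 7592 under neqc (48.9% higher) and 6573 under quantile normalization (46.2% higher), against 6687 (47.5% higher). In the iNOS-/- response the 9 higher and 3 lower calls became 8 and 14 under neqc and 8 and 12 under quantile normalization, and the median went from 0.12 to -0.16 under both. Over all probes the share of called ones that were higher went from 50.1% to 43.3% and 41.9%, and the median from 0 to -0.06 and -0.13. No gene called under the rank-invariant scaling was called in the opposite direction under the other scalings. The M1 differences of Pfkp and Hk3 were 0.42 and 0.42 under neqc, 0.42 and 0.43 under quantile normalization, and called higher under both. Those of Pkm2, Tpi1, Tkt and Aldoa went to -0.92, -0.86, -0.84 and -0.74 under neqc, and Pgd and Taldo1, near 0 in the rank-invariant scaling, to -0.58 and -0.50, all called lower. In the iNOS-/- response Pkm2 was at -0.62 and Gapdh at -0.35 under both, where they had not been called.

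**Figure D5:**
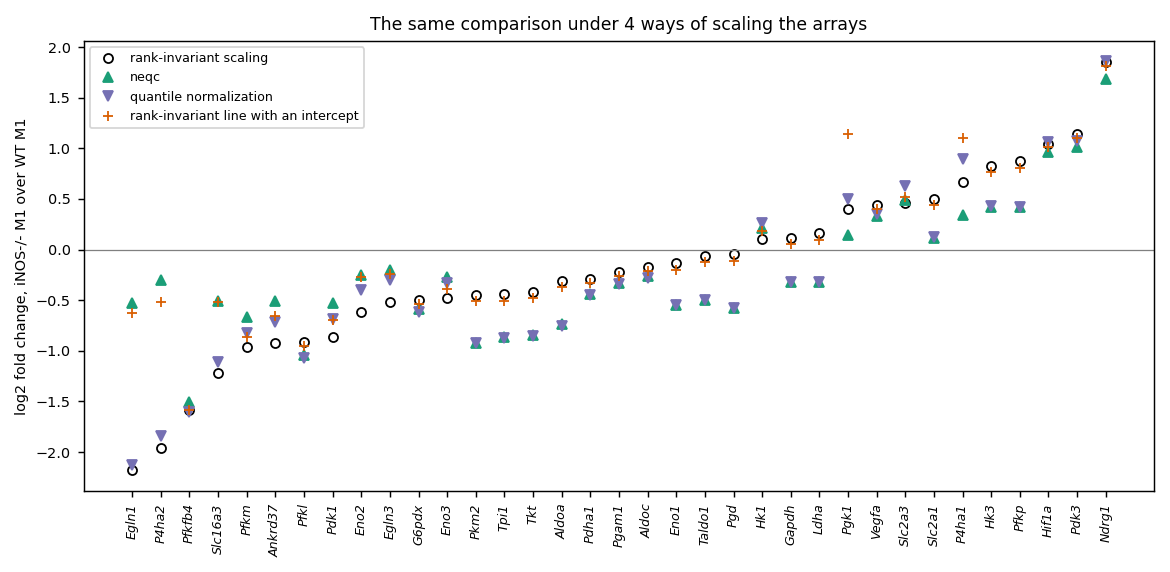
Log2 fold change of iNOS-/- M1 over WT M1 (y axis) for each of the 35 tested genes (x axis, ordered by the rank-invariant value) under the scalings marked in the legend. Slc2a1, Gapdh and Ldha are among the 12 genes that lie lower under neqc and quantile normalization.

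Other genes of the same pathways, from a list of companions, gave 66 tested genes. Between the M1 groups 16 were higher and 14 lower in iNOS-/-, in WT 11 rose and 12 fell with stimulation, and in iNOS-/- 22 rose and 17 fell, where 49.8%, 36.5% and 52% of all genes were called. Between the unstimulated groups 14 were higher and 17 lower, and the interaction was called higher for 19 and lower for 11, against 34.1% and 43.8% of all genes. Of 7 other pentose phosphate genes, 1 was higher and 3 were lower between the M1 groups. Of 11 other oxygen-sensing genes, 3 were higher and none lower, and of 31 other hypoxia-response targets, 7 were higher and 6 lower.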

How the data were processed

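Total RNA of the macrophage cultures was hybridized to 8 Illumina bead arrays (MouseRef-8 in the design text and MouseWG-8 in the protocol), and the authors deposited 1 table that gives each probe an intensity and a detection p-value on every array. Per the labels, GenomeStudio and limma 3.14.4 were used, after subtraction of background, and the normalization was rank-invariant. The file header names no normalization, and 25.2% to 27.2% of the intensities lie below 0, so the intensity values were taken as background-subtracted and not yet scaled. Here each array was scaled through rank-invariant probes (factors 0.813 to 1.3), values under 1 were set to 1, and log2 was taken. Probes detected at p under 0.05 on at least 2 arrays were kept (13868). One limma 3.58.1 model in R 4.3.3 held the 4 groups, with Benjamini-Hochberg adjustment over all probes tested, and 0.05 as threshold. Where both arrays of a group failed to detect a probe, a fold against that group is given as a bound, and a fitted value there has no measured size. The script was tested on simulated data. Named genes are the 39 of 42 listed members with a probe, Nos2, and of companion genes at most the 3 largest called changes each way per comparison that were detected on both arrays of the higher group with no overlap. The members and lists were chosen with earlier results of these data known. The number of arrays limits the precision. Alternatives were neqc, quantile normalization, a line with an intercept, a floor of 16, detection filters, a 2-fold minimum, averaged probes, an intensity trend, a replicate block, fits on 4 arrays and leaving out each array. Promoter windows came from RefSeq, and the probe sequences from the deposited file.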

Additional observations from a re-analysis of the deposited data

Results flagged for a closer look

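In 16 of the 35 tested genes the response to LPS plus IFN-γ differed between the genotypes as labelled, by the interaction term of the limma fit (adjusted p under 0.05). Of all 10141 genes tested by their brightest probe, 43.8% passed the same test. The difference of log2 fold changes, iNOS-/- minus WT, was 3.57 for Vegfa, 2.56 for Eno2, 2.03 for Hk3, 1.85 for Hif1a, 1.68 for Ndrg1, 1.18 for P4ha1, 0.68 for Aldoc and 0.48 for Slc2a1. It was -0.47 for Tkt, -0.52 for Tpi1, -0.78 for Slc2a3, -0.93 for Pfkm, -1.07 for Pfkfb4, -1.12 for Pdk1, -3.37 for Eno3 and -3.52 for Slc16a3. The Slc16a3 value is a fitted one with no measured size, since neither WT unstimulated array detected the probe, and it was -0.90 under neqc, -3.32 under quantile normalization (adjusted p 0.0531) and -1.41 with an intercept (adjusted p 0.0539). The groups of 2 arrays are too small for a check of single outlying arrays.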

How the results depend on the processing

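Of 81 gene calls over the 5 comparisons, 36 passed whichever array was left out and 45 were lost at least once. By probes, 27 of 46 tested probes were called between the M1 groups, 15 between the unstimulated groups, 23 in the WT response, 16 in the iNOS-/- response and 20 for the interaction. Leaving out each array gave 16 to 25, 10 to 17, 10 to 22, 11 to 16 and 11 to 15. The M1 count was 16 on the 4 M1 arrays alone. A 2-fold minimum gave 9, 9, 9 and 13 for the M1, unstimulated, WT and interaction counts. Neqc gave 23 in the unstimulated comparison and 27 in the iNOS-/- response, and quantile normalization 25 there. A replicate block gave 26, 15, 21, 15 and 16. The differences of replicate 1 minus replicate 2, over all tested probes, correlated at -0.038 to 0.025 between groups. They show no shift shared by same-numbered arrays, and whether the numbers pair the samples is not known. Over all probes called between the M1 groups 47.5% were higher, and 58.4% with an intercept; in the WT response 59.3%, 44.4% under neqc, 47.4% under quantile normalization and 49% with an intercept; for the interaction 46.1% and 59.7%. Among other results, signs turned for the Slc2a1 interaction (-0.03 under neqc and quantile normalization). With probes averaged they turned for Pfkl between the M1 groups (0.04) and the uncalled Pfkp interaction (0.25). The uncalled M1 differences of Gapdh and Ldha turned to -0.32 under neqc and quantile normalization. Gapdh was called lower under both, and Ldha under neqc alone. Uncalled iNOS-/- responses of Aldoa (-0.54 and -0.55), Gapdh (-0.35), Ldha (-0.52), Pgd (-0.53) and Taldo1 (-0.54) turned and were called lower under both. That of Eno1 (-0.43) was called lower under neqc. The uncalled interactions of Pgd (-0.59) and Taldo1 (-0.39) turned and were called lower under both. Leaving out each array, uncalled M1 differences ranged from -0.37 to 0.10 for Eno1, -0.11 to 0.02 for Pgd, -0.13 to 0.01 for Taldo1 and -0.35 to 0.00 for Aldoc. The cause was not tested. The slide as a block was not run, since no slide is named. Dim probes (Egln1, P4ha2, Pgk1, Slc16a3) are limited by signal over background.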

Other observations

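Among the companion genes, Gpd2, the mitochondrial glycerol phosphate dehydrogenase that takes electrons from glycolysis, was 2.26 higher on the log2 scale in iNOS-/- M1 than in WT M1 (SE 0.11, adjusted p 0.00019). Lox, a collagen cross-linking enzyme induced by hypoxia, was 1.46 higher there (SE 0.20, adjusted p 0.0032) and -2.04 lower in unstimulated iNOS-/- cells (SE 0.20, adjusted p 0.0018), and rose by 3.48 with stimulation in iNOS-/- (SE 0.20, adjusted p 0.00016). Angptl4, a lipase inhibitor, was not detected in iNOS-/- M1 and was at least 3.90-fold lower than in WT M1 (adjusted p 0.00067). Edn1, the vasoconstrictor endothelin-1, rose by 7.04 in WT (SE 0.29, adjusted p 9.9e-05) and 5.67 in iNOS-/- (SE 0.29, adjusted p 0.0001). Bnip3l, a receptor for the clearance of mitochondria, fell by 1.65 in WT (SE 0.11, adjusted p 0.0004), and Mxi1, a partner of MAX that opposes MYC, fell by 1.31 (SE 0.20, adjusted p 0.0065). The response of Tfrc, the transferrin receptor, was -2.96 lower in iNOS-/- (interaction, SE 0.20, adjusted p 0.00057), and that of Adpgk, an ADP-dependent glucokinase, -2.62 (SE 0.14, adjusted p 0.00033). These calls held under each alternative that gave a value.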
